A study of Rattus norvegicus with 32 samples.

Results

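The comparison described here sets the muscle RNA of obese Zucker rats fed a safflower oil diet, labelled LA for linoleic acid, against that of obese Zucker rats fed the control diet. Its members were chosen by their sample titles, which gave 8 LA rats and 8 obese controls, 16 of the 32 arrays of the series. The other arrays came from 8 lean controls and 8 obese rats on a flaxseed oil diet (ALA), and they shared in the choice of features and in the estimate of the spread between rats. Their levels are given for Cyp1a1, with a test of LA against ALA rats, and plotted for 5 other genes. All 16 rats were male and carried the obese Zucker genotype. They reached the laboratory at 5 weeks of age and were 18 weeks old at sampling after 12 weeks of feeding. Lean controls and ALA rats had the same ages and feeding time, with no added oil and 10% oil respectively. Obese controls ate AIN-93G, a purified rodent diet, as they wished. LA rats ate AIN-93G to which 10% safflower oil had been added, in amounts that matched the calories the obese controls took in. The oil and the fixed ration therefore came together in every LA rat, and their effects cannot be told apart. The obese genotype was shared by both groups, and the labels do not say whether rats were littermates or shared cages. The tissue was the red tibialis anterior, the oxidative portion of a hindlimb muscle, and each array was made from 100 ng of total RNA of 1 rat.

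Linoleic acid is an essential omega-6 fatty acid that muscle can burn, store in membranes and triglyceride, or desaturate and elongate to arachidonic acid, the precursor of prostaglandins and leukotrienes. Fatty acids and their oxidised products bind peroxisome proliferator-activated receptors (PPARs), which switch on genes of fat oxidation, and polyunsaturated fatty acids are known to restrain the lipogenic factor SREBP-1c in liver. A hindlimb muscle also holds fibroblasts, tendon and aponeurosis, vessels, nerve and macrophages, and its fibres differ in their content of slow and fast contractile proteins.

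Values are log2 intensities as the authors deposited them, with 1 array feature per gene, so a difference of 1 log2 unit is a doubling. A gene was called at a limma adjusted p below 0.05 over all 14557 genes. Among these, 1 gene (0.00687%) was called between LA rats and obese controls. A typical gene's difference carried a standard error of 0.0835 log2 units (median over genes). Its unadjusted 95% confidence interval reached 0.170 log2 units to either side. Smaller differences in a typical gene would not reach an unadjusted p below 0.05, and a call over all genes needed larger ones. Skeletal muscle as the tissue was borne out by Ckm, muscle creatine kinase, at 12.33 to 12.50 in obese controls and 12.35 to 12.52 in LA rats, and by Mb, myoglobin, at 12.38 to 12.55 and 12.37 to 12.52. Whether it was the red portion of the muscle was not tested.

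Of the 16 arrays, 5 stood apart in marker genes of other tissues or fibre states, and the differences of most genes and lists below are given with and without them. LA rats 7 and 8 were picked for their high tendon and slow-fibre RNA. Smaller differences of those genes without these rats were therefore built in and test nothing. LA rat 7 had high levels of tendon genes, with Chad, the cartilage and tendon protein chondroadherin, at 10.26 and Tnmd, the tendon cell marker tenomodulin, at 7.40. LA rat 8 had Chad at 8.06 and Tnmd at 4.87. Chad in the other LA rats and all obese controls lay between 3.89 and 5.82, with LA rat 5 highest. The mean over 16 tendon genes was 4.82 to 5.52 in obese controls and 4.91 to 7.36 in LA rats, and without the arrays that stood apart it was 4.82 to 5.33 and 4.91 to 5.62. Obese controls 4 and 7 had high levels of genes of denervated or regenerating muscle, with Chrna1, a subunit of the acetylcholine receptor, at 10.64 and 10.80 against 6.00 to 7.54 in the other controls. Obese control 5 had high levels of hepatocyte genes. Its Alb, serum albumin, was at 11.83 against 4.53 to 6.54 in the other controls, and its mean over 19 hepatocyte genes was 7.74 against 3.37 to 3.66.

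**Figure D1:**
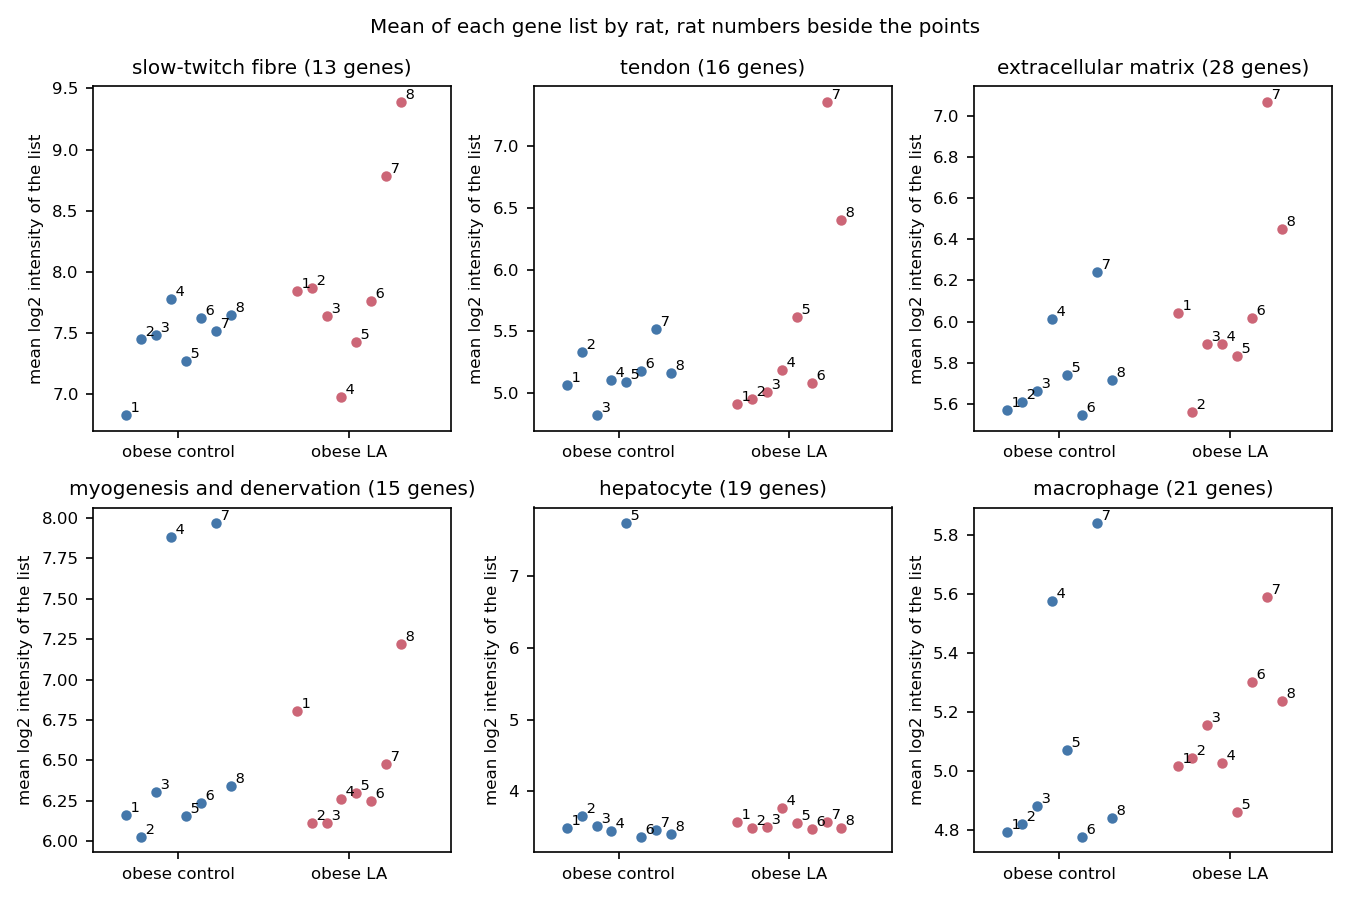
Mean log2 intensity of 6 gene lists (vertical axes) in each of the 8 obese controls and 8 LA rats, with 1 point per rat and its number beside it. LA rats 7 and 8 stand high in the tendon and slow-twitch lists, obese controls 4 and 7 in the myogenesis and denervation list, and obese control 5, at 7.74, in the hepatocyte list.

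Cyp1a1 was the gene that rose. It encodes a cytochrome P450 that oxidises aromatic compounds and several polyunsaturated fatty acids, and it is a textbook target of the aryl hydrocarbon receptor. In obese controls its lowest, median and highest log2 intensities were 3.00, 3.13 and 3.21, and in LA rats they were 3.39, 3.72 and 4.23. Every LA rat lay above every obese control, with rats 6 and 7 highest and rat 1 lowest on the LA diet. The means were 3.11 ± 0.08 and 3.77 ± 0.29 (SD, n = 8 each), a difference of 0.66 log2 units (95% confidence interval 0.48 to 0.84) or 1.58-fold, with a limma adjusted p of 0.000326. Cyp1a1 (feature 17844555) is dim, since its mean intensity over all arrays was at the 23.2 percentile of all genes, and RMA values compress differences of dim features.

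The rise did not rest on the arrays that stood apart. Without LA rats 7 and 8 and obese controls 4, 5 and 7 the difference was 0.59 log2 units (limma, adjusted p = 0.0345), and Cyp1a1 was again the 1 gene called (0.00687%). It was lost as a call when the spread was estimated from the 16 arrays alone (limma, adjusted p = 0.0621), and filters that removed dim genes removed Cyp1a1 itself. Levels in rats outside the comparison were 2.87 to 3.38 in lean controls and 2.98 to 3.36 in ALA rats, and no ALA rat reached the lowest LA rat. Between both oils, LA rats exceeded ALA rats by 0.64 log2 units (limma, adjusted p = 0.000617), and Cyp1a1 was the 1 gene called there too (0.00687%).

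Other genes of the aryl hydrocarbon receptor pathway did not pass the test. Of the 7 listed genes measured, 4 had higher means on LA and 2, Cyp1a1 and Ahrr, had an unadjusted p below 0.05, while the list's median difference was 0.04 log2 units against -0.00327 over all genes, and 0.01 without the 5 arrays. Ahrr, the receptor's repressor and itself a target, was at 2.61, 2.68 and 2.92 (lowest, median and highest) in obese controls and at 2.66, 3.00 and 3.18 in LA rats. In all, 5 LA rats lay above every control, so the groups overlapped, and the difference was 0.20 log2 units (limma, adjusted p = 0.657), or 0.27 without the 5 arrays. Cyp1b1, another P450 target, differed by 0.04 and then 0.01 log2 units. Aldh3a1, an aldehyde dehydrogenase target, differed by 0.29 and then 0.10 log2 units, with LA rat 7 at 5.58 and all other rats of both groups between 3.80 and 4.38. Nqo1, a quinone reductase, differed by -0.18 and then -0.19 log2 units, Ahr, the receptor, by -0.01 and -0.06, and Arnt, its partner, by -0.03 and -0.06.

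**Figure D2:**
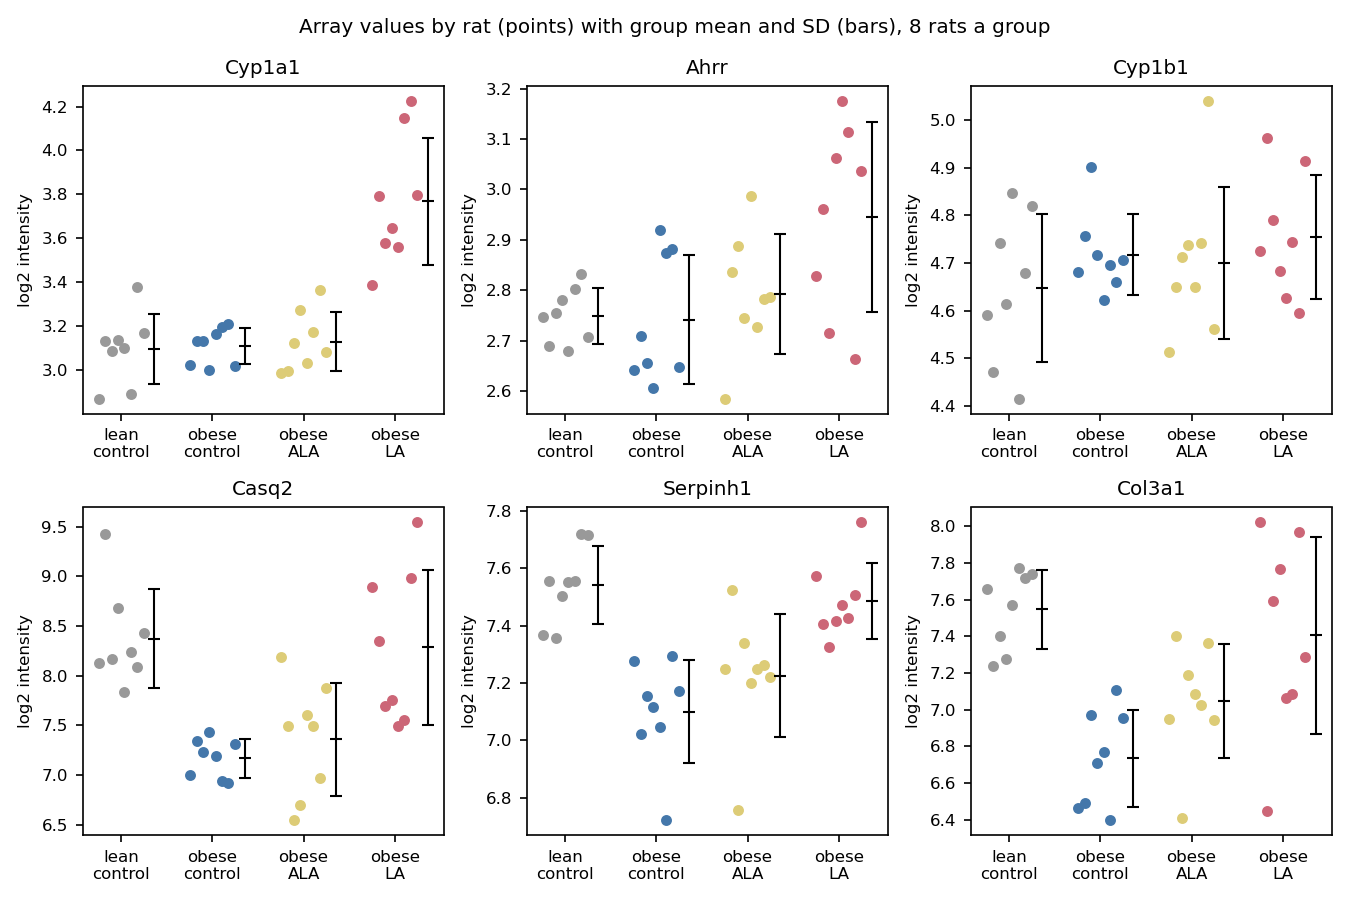
Log2 intensity (vertical axes) of Cyp1a1, Ahrr, Cyp1b1, Casq2, Serpinh1 and Col3a1 in the 8 rats of each of the 4 groups, with 1 point per rat and bars for the group mean and SD. For Cyp1a1 the LA rats sit between 3.39 and 4.23, all above the obese controls, whose highest value is 3.21. The highest lean control is at 3.38.

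At an unadjusted p below 0.05, 450 genes (3.09%) had higher and 386 genes (2.65%) lower means on LA, and without the 5 arrays the counts were 415 (2.85%) and 305 (2.1%). The higher levels lay on the LA side in 7082 of 14557 genes (48.7%). Counts given for each gene list are to be read against these shares over all genes. In 4 genes (0.0275%) every LA rat lay above every obese control, and these were Cyp1a1, Serpinh1, Casq2 and Cyp4f18. The gap was narrow for Cyp4f18, with the lowest LA rat at 4.930 and the highest control at 4.925. It was also narrow for Serpinh1, at 7.32 and 7.29. In 0 genes (0%) did every LA rat lie below every control.

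**Figure D3:**
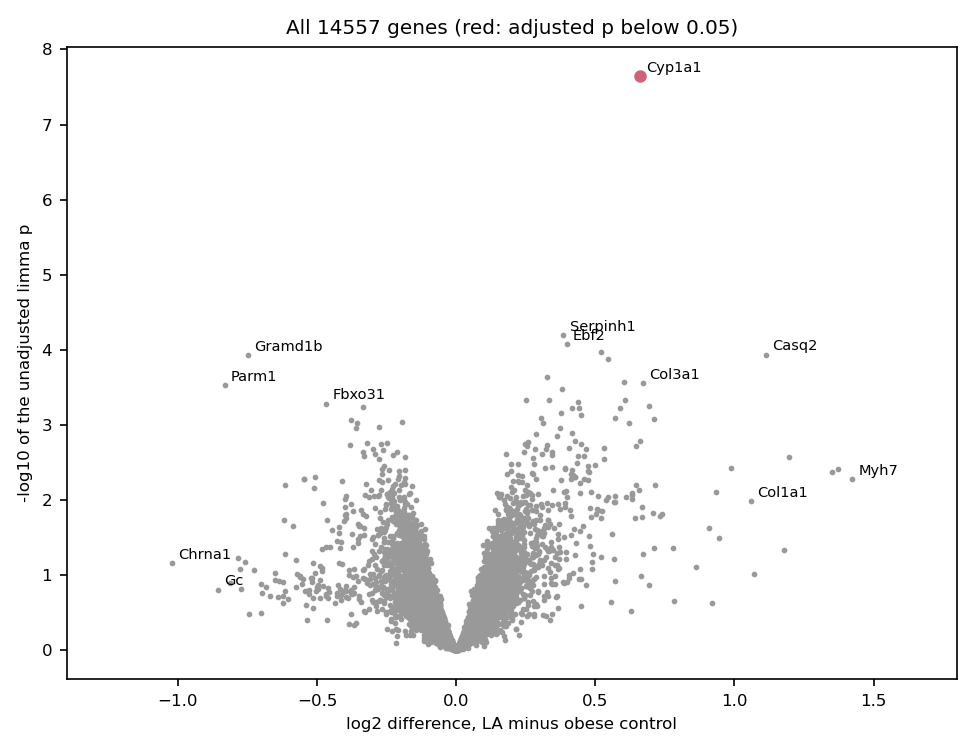
Difference between LA rats and obese controls in log2 units (horizontal axis) against -log10 of the unadjusted limma p (vertical axis) for all 14557 genes. Cyp1a1 sits highest, at 0.66 log2 units, while the widest differences, such as Myh7 at 1.42, have larger p-values.

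Collagen and fibroblast genes were among those with the smallest p after Cyp1a1, without passing the test. Among the 9 other genes with the smallest p and a higher level on LA, limma adjusted p ran from 0.275 to 0.394. Serpinh1, the collagen chaperone HSP47, was at 6.72, 7.13 and 7.29 in obese controls and at 7.32, 7.45 and 7.76 in LA rats. These ranges did not overlap, and the difference was 0.39 log2 units (95% confidence interval 0.21 to 0.56; limma, adjusted p = 0.275). It was 0.37 without the 5 arrays. Col3a1, a fibrillar collagen, was at 6.40, 6.74 and 7.11 in obese controls and at 6.45, 7.44 and 8.02 in LA rats. Above all controls lay 5 LA rats, with rat 1 highest, while rats 2, 5 and 6 lay within the control range. The difference was 0.67 log2 units with and without the 5 arrays (limma, adjusted p = 0.393 and 0.906). Leaving out LA rat 2 alone brought Col3a1 to 0.81 log2 units and a limma adjusted p of 0.0320, a second call beside Cyp1a1. Fbn1, the microfibril protein fibrillin-1, was at 5.67, 5.91 and 6.57 in obese controls and at 6.05, 6.56 and 7.45 in LA rats. Its groups overlapped, with 3 LA rats above all controls, and the difference was 0.60 log2 units, or 0.58 without the 5 arrays.

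The extracellular matrix list held 28 measured genes, of which 24 had higher means on LA and 12 had an unadjusted p below 0.05 on that side and none on the other. Its median difference was 0.32 log2 units, against -0.00327 over all genes, and 0.22 without the 5 arrays, when 26 were higher and 10 had an unadjusted p below 0.05. Without LA rats 7 and 8 alone 20 were higher and the median was 0.09, and without LA rat 7 alone the median was 0.18. Without obese controls 4, 5 and 7 alone all 28 were higher and the median was 0.41. No gene of the list was called. Col1a1, a chain of type I collagen, showed how far LA rat 7 went, at 10.78 against 6.18 to 8.18 in the other LA rats and 6.49 to 7.29 in obese controls. Its difference was 1.06 log2 units in all arrays and 0.50 without the 5. Col1a2, the other type I chain, differed by 0.99 and then 0.60 log2 units, Mmp2, a gelatinase that cuts collagens, by 0.71 and 0.42, Col15a1, a basement membrane collagen, by 0.47 and 0.44, and Col6a1, a collagen VI chain around fibres, by 0.38 and 0.35.

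Fibroblast genes lay the same way. All 13 measured genes of the fibroblast and fibro-adipogenic list had higher means on LA, with a median difference of 0.39 log2 units. Of them, 11 had an unadjusted p below 0.05 on that side, against 3.09% of all genes. Without the 5 arrays all 13 were still higher, 5 had an unadjusted p below 0.05 and the median was 0.32. Without LA rats 7 and 8 alone 12 were higher, 6 had an unadjusted p below 0.05 and the median was 0.26. Leaving out obese controls 4, 5 and 7 alone gave a median of 0.53. Among obese controls, rats 4 and 7 had the highest list means. The list mean was 6.13 to 6.59 in obese controls and 6.08 to 8.08 in LA rats, and 6.13 to 6.44 and 6.08 to 6.81 without the 5 arrays, so the groups overlapped either way. The list shares Col1a1, Col1a2, Col3a1 and Fbn1 with genes named above. Pi16, a marker of adventitial fibroblasts, differed by 0.45 log2 units, Cd34, carried by fibroblasts and endothelium, by 0.39, and Dcn, the proteoglycan decorin, by 0.39, and these were 0.28, 0.24 and 0.18 without the 5 arrays. In bulk tissue, a larger number of cells of a type and more RNA per cell cannot be told apart.

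Other genes with the smallest p lay at lower intensities. Scara5, a ferritin receptor of fibroblasts, was at 4.28, 4.56 and 4.66 in obese controls and at 4.61, 4.97 and 5.99 in LA rats. The 7 highest LA rats lay above all controls and rat 7 was highest. The difference was 0.52 log2 units, or 0.30 without the 5 arrays. Ebf2, a transcription factor of adipocyte precursors, differed by 0.40 and then 0.29 log2 units, and 7 LA rats lay above all controls. Capn6, a calpain without protease activity, differed by 0.54 and 0.51, Myzap, a protein of cardiac cell junctions, by 0.33 and 0.28, and Cyp4f18, a P450 that hydroxylates leukotriene B4 in mouse, by 0.38 and 0.27. All 10 genes with the smallest p and a higher level on LA kept that direction without the 5 arrays, each with an unadjusted p below 0.05. These genes were picked by p in rats that include the smaller set, so this is no separate test.

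The tendon genes were high in LA rats 7 and 8, which were picked in part for this. Of 16 measured tendon genes, 13 had higher means on LA and 6 had an unadjusted p below 0.05, and the median difference of 0.43 log2 units became 0.07 without the 5 arrays. Kera, the proteoglycan keratocan, was at 2.68, 3.09 and 3.26 in obese controls and at 2.80, 3.36 and 7.76 in LA rats. LA rats 5, 7 and 8 were its highest, and its difference was 0.95 log2 units, or 0.19 without the 5 arrays. Tnmd differed by 0.78 and then 0.03, and Chad by 1.07 and then -0.12. LA rat 5 was not left out, and its Chad at 5.82, Tnmd at 4.08 and Kera at 4.32 lay above every obese control. The part of tendon RNA in the matrix and fibroblast values was not tested beyond leaving out the 5 arrays.

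**Figure D4:**
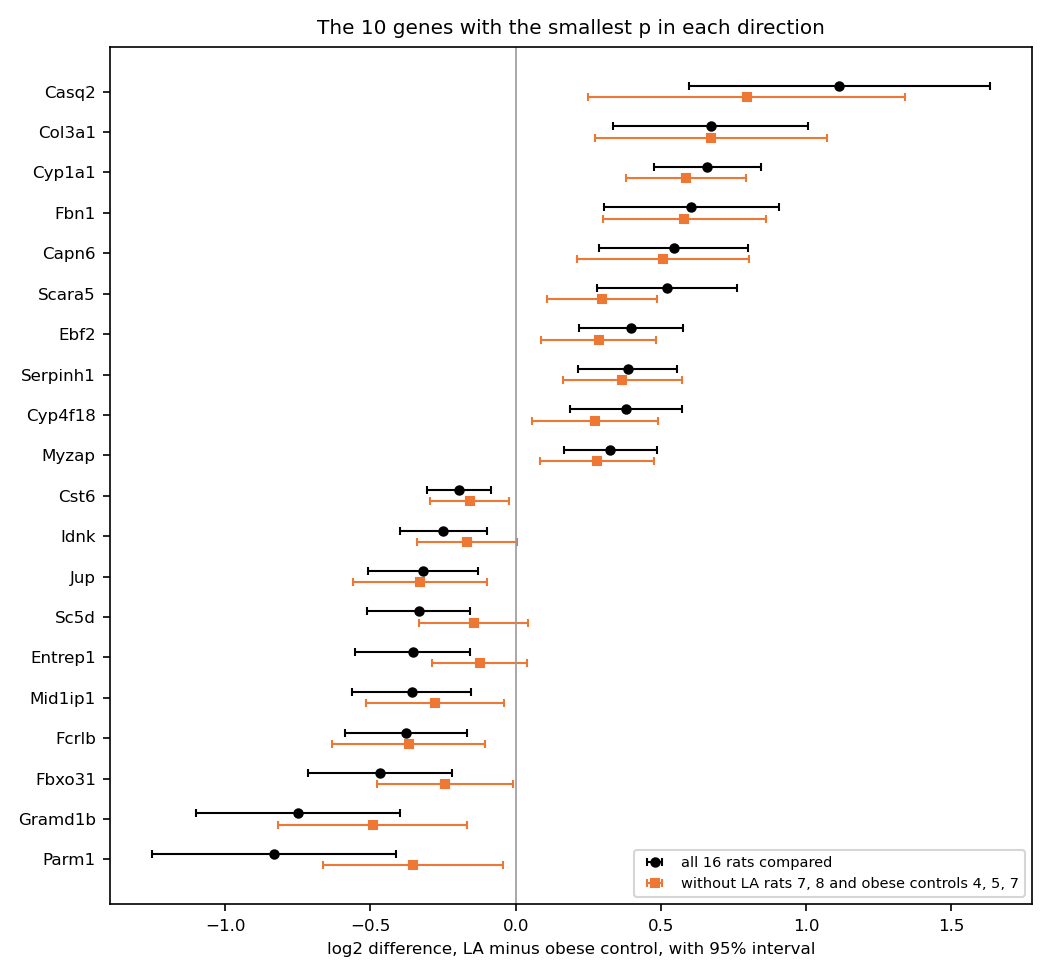
Difference between LA rats and obese controls in log2 units, with 95% confidence intervals from limma, for the genes with the smallest p in each direction, in all arrays and without the 5 arrays that stood apart. The point estimates of all 10 genes higher on LA and all 10 lower on LA stay on their side of 0, and Cyp1a1 alone is called. Without the 5 arrays, 7 of the 10 lower genes have an unadjusted limma p below 0.05, and the intervals of the rest include 0.

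Slow-fibre genes were among those with the largest differences, and they varied widely between rats. Of 13 measured slow-twitch genes, 11 had higher means on LA, 5 of them with an unadjusted p below 0.05 and 1 gene with a lower mean at that p, and the median difference was 0.22 log2 units. With the 5 arrays left out, 9 were higher, 1 had an unadjusted p below 0.05 and the median was 0.20. That median depended on the arrays included, at 0.06 with 7 of 13 genes higher without LA rats 7 and 8 alone, and at 0.69 without obese controls 4, 5 and 7 alone. The fall without LA rats 7 and 8 was built in, since they were picked for high slow-fibre RNA. Leaving out single arrays gave medians from 0.13, without LA rat 8, to 0.46, without obese control 7. Myh7, the slow myosin heavy chain, was at 5.86, 7.54 and 8.49 in obese controls and at 5.92, 8.96 and 11.05 in LA rats. LA rats 7 and 8 were highest and LA rat 4 sat at the low end of the control range. The difference was 1.42 log2 units (95% confidence interval 0.45 to 2.39; limma, adjusted p = 0.657) and 0.36 without the 5 arrays. Tnnt1, slow troponin T, differed by 1.37 and then 0.44 log2 units, and Tnnc1, slow troponin C, by 1.35 and then 0.44. Atp2a2, the slow-fibre calcium pump, differed by 0.74 and then 0.20, and Pln, its inhibitor phospholamban, by -0.35 and then -0.24.

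Casq2, the calcium store protein of slow and cardiac muscle, stood out within this list. Its lowest, median and highest levels were 6.92, 7.21 and 7.44 in obese controls and 7.50, 8.05 and 9.54 in LA rats. The groups did not overlap, and LA rats 8, 7 and 1 were highest. The difference was 1.11 log2 units (95% confidence interval 0.60 to 1.63; limma, adjusted p = 0.275), or 0.80 without the 5 arrays. Mss51, a mitochondrial regulator of muscle, differed by 1.20 and then 0.53 log2 units, and Ostn, the secreted muscle peptide osteocrin, by 1.18 and then 0.55. Without the 5 arrays, Myh7, Tnnt1, Tnnc1, Mss51 and Ostn, the genes with the largest differences, all kept their direction, at 0.36 to 0.55 log2 units, and none had an unadjusted p below 0.05.

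All 7 measured fast-twitch genes had higher means on LA as well, with a median difference of 0.13 log2 units and 2 at an unadjusted p below 0.05. Myh4, the IIb myosin heavy chain, differed by 0.05 and then 0.02 log2 units and Tnnt3, fast troponin T, by 0.05 and then 0.06. Mybpc2, fast myosin-binding protein C, differed by 0.27 and Actn3, the fast-fibre alpha-actinin, by 0.24, and these were 0.06 and 0.09 without the 5 arrays. The median of the list was then 0.05.

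On the lower side, no gene was called, and the 10 genes with the smallest p had limma adjusted p from 0.275 to 0.547. Gramd1b, a protein that carries cholesterol from the plasma membrane, was at 6.42, 6.95 and 7.71 in obese controls and at 5.61, 6.38 and 6.86 in LA rats. Below all controls lay 4 LA rats, and obese controls 4 and 7 were highest. The difference was -0.75 log2 units (95% confidence interval -1.10 to -0.40; limma, adjusted p = 0.275), or -0.49 without the 5 arrays. Parm1, a mucin-like membrane protein, was at 5.68, 5.89 and 7.37 in obese controls and at 4.91, 5.24 and 6.06 in LA rats. Below all controls lay 6 LA rats, and obese controls 4 and 7 were again highest. The difference was -0.83 log2 units, or -0.35 without the 5 arrays.

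Mid1ip1, which helps acetyl-CoA carboxylase polymerise in fat synthesis, was at 7.65, 7.72 and 8.09 in obese controls and at 7.09, 7.54 and 7.75 in LA rats. Of the LA rats, 7 lay below all controls, and the difference was -0.36 log2 units, or -0.28 without the 5 arrays. Sc5d, a late enzyme of cholesterol synthesis, differed by -0.33 and then -0.14 log2 units. Fbxo31, a ubiquitin ligase subunit, differed by -0.47 and then -0.24, and Entrep1, a regulator of receptor endocytosis, by -0.35 and then -0.12. Jup, the junction protein plakoglobin, differed by -0.32 and then -0.33, and Fcrlb, an Fc receptor-like protein, by -0.38 and then -0.37. Cst6, a cysteine protease inhibitor, differed by -0.20 and then -0.16, and Idnk, a gluconate kinase, by -0.25 and then -0.17. All 10 kept their direction without the 5 arrays, 7 with an unadjusted p below 0.05, while 5 of them, Gramd1b, Parm1, Fbxo31, Sc5d and Entrep1, shrank by over 1.5 times. The 10 genes were likewise picked by p in overlapping rats, so this is no separate test.

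Of the 5 largest lower differences, Parm1 kept an unadjusted p below 0.05 without the 5 arrays, and the other 4, Chrna1, Gc, Ambp and Scn3b, had their highest values in obese controls that stood apart. Chrna1 differed by -1.02 log2 units in all arrays and by -0.24 without the 5, and Scn3b, a sodium channel subunit at 7.41 and 8.12 in obese controls 4 and 7 against 4.05 to 4.76 in the others, differed by -0.78 and then by 0.07. In the myogenesis and denervation list 12 of 15 genes had lower means on LA, with a median of -0.14 log2 units, and without the 5 arrays 5 were lower and the median was 0.05. It was -0.41 without LA rats 7 and 8 alone and 0.17 without obese controls 4, 5 and 7 alone. Hdac4, a deacetylase induced by denervation, was the list's member with the smallest p, at -0.41 and then -0.31 log2 units. Gc, the vitamin D-binding protein made by liver, differed by -0.86 and Ambp, another liver plasma protein, by -0.81, and these were 0.06 and -0.03 without the 5 arrays. All 19 measured hepatocyte genes had lower means on LA, with a median of -0.49 log2 units, while without the 5 arrays 13 were higher and the median was 0.06. Leaving out obese control 5 alone gave a median of 0.06 as well.

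**Figure D5:**
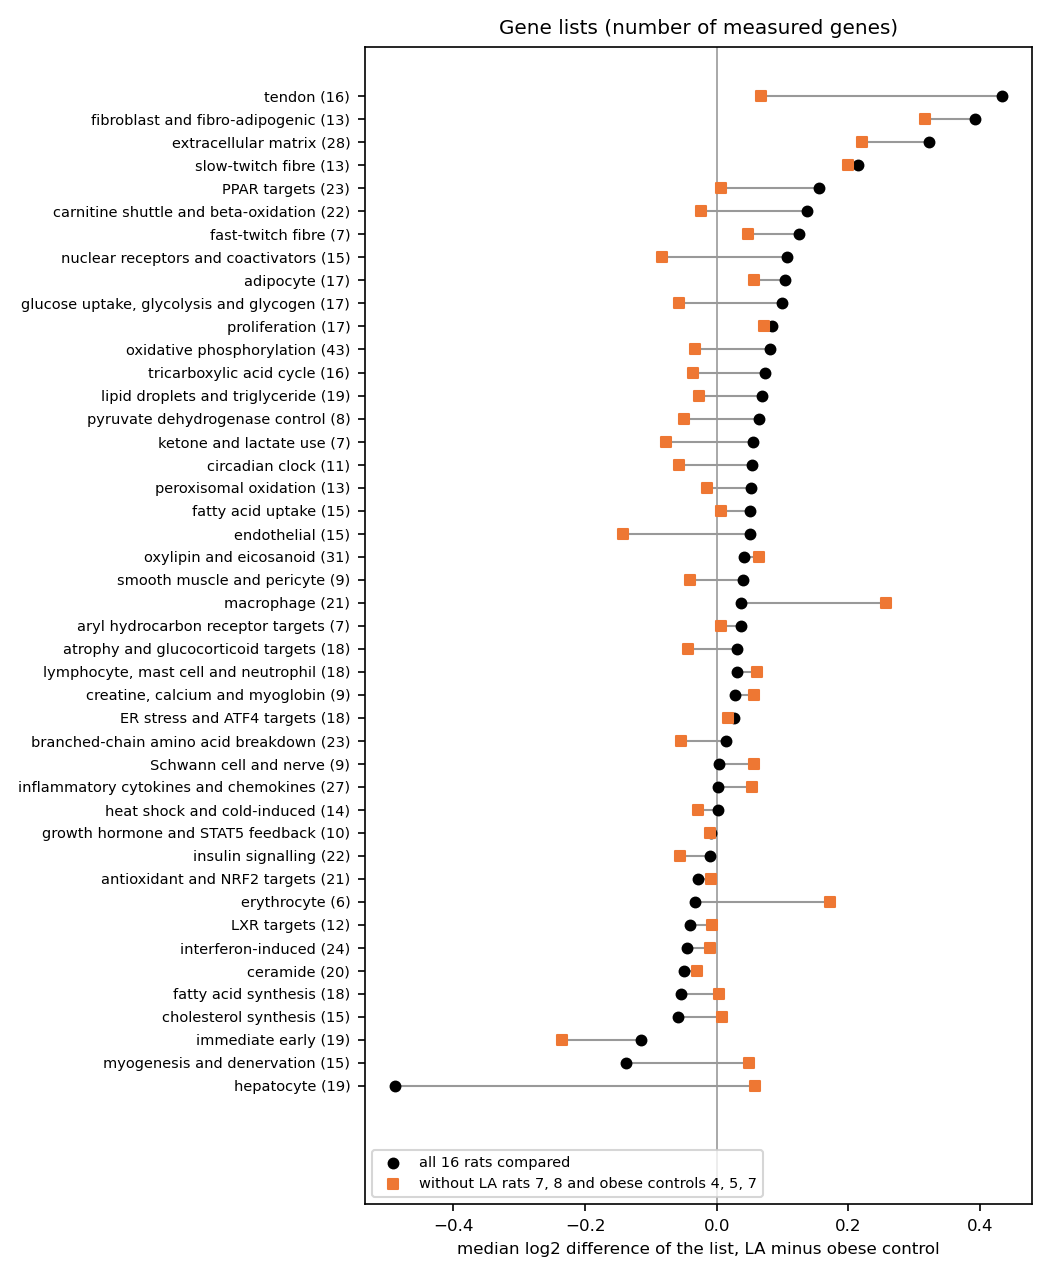
Median difference between LA rats and obese controls in log2 units for each gene list, with the number of measured genes in brackets, in all arrays and without the 5 arrays that stood apart. The hepatocyte list moves from -0.49 to 0.06, and the fibroblast list from 0.39 to 0.32.

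Genes of fat use showed small differences, and none was called. Of 23 measured PPAR targets, 18 had higher means on LA, 3 of them with an unadjusted p below 0.05, and the median difference was 0.16 log2 units. With the 5 arrays left out, 12 were higher and the median was 0.01. Angptl4, a lipoprotein lipase inhibitor induced by fatty acids, was at 5.88, 6.78 and 7.66 in obese controls and at 6.66, 7.34 and 8.67 in LA rats. The groups overlapped, and the difference was 0.57 log2 units (95% confidence interval -0.15 to 1.30; limma, adjusted p = 0.880), or 0.37 without the 5 arrays. Pdk4, which restrains pyruvate dehydrogenase, differed by 0.11 log2 units (95% confidence interval -0.20 to 0.42) and then by 0.05. Ucp3, a mitochondrial carrier of muscle, differed by 0.22 log2 units (95% confidence interval -0.47 to 0.90) in all arrays and by -0.04 without the 5. Acot2, a mitochondrial acyl-CoA thioesterase, differed by 0.31, Fabp4, a fatty acid carrier of adipocytes and endothelium, by 0.30 and Txnip, a glucose-responsive arrestin, by 0.26, and these became 0.10, 0.07 and 0.10 without the 5 arrays.

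Of 22 genes of the carnitine shuttle and beta-oxidation, 18 had higher means on LA and 0 an unadjusted p below 0.05 in either direction. Their median was 0.14 log2 units and became -0.02 without the 5 arrays. Cpt1b, the muscle carnitine palmitoyltransferase, differed by -0.05 log2 units (95% confidence interval -0.18 to 0.09) and then by -0.08, and Decr1, a reductase needed to oxidise polyunsaturated fatty acids such as linoleic acid, by 0.10 (95% confidence interval -0.21 to 0.41) and then by 0.02. Acadl, long-chain acyl-CoA dehydrogenase, was at 10.53 to 10.80 in obese controls and 10.41 to 10.79 in LA rats. The ranges of this enzyme nearly coincided. Of 43 measured genes of oxidative phosphorylation, 39 had higher means on LA with a median of 0.08 log2 units and 0 with an unadjusted p below 0.05, and without the 5 arrays 12 were higher and the median was -0.03. The mean over the list was 9.25 to 9.97 in obese controls and 9.62 to 10.02 in LA rats.

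The enzymes that desaturate and elongate linoleic acid did not pass the test. Fads2, the first desaturase of this route, was at 5.30, 5.61 and 9.52 in obese controls and at 5.44, 5.80 and 6.77 in LA rats. Obese control 5, the array with high hepatocyte genes, held the highest value, and the difference of -0.03 log2 units became 0.35 without the 5 arrays (limma, unadjusted p = 0.0120, adjusted p = 0.992). Fads1, the other desaturase, differed by -0.02 and then 0.21 log2 units, Elovl5, an elongase, by -0.05 and then -0.12, and Elovl6, which elongates palmitate, by -0.17 and then 0.08. Scd, stearoyl-CoA desaturase, was at 5.90, 6.91 and 9.14 in obese controls and at 4.89, 6.28 and 8.51 in LA rats. Of the LA rats, 4 lay below all controls, and the difference was -0.68 log2 units (95% confidence interval -1.61 to 0.24; limma, adjusted p = 0.880), or -0.50 without the 5 arrays. Srebf1, which encodes SREBP-1, differed by 0.17 and then 0.14 log2 units. Of 18 genes of fatty acid synthesis, 15 had lower means on LA with a median of -0.05 log2 units, and without the 5 arrays 9 were lower and the median was 0.00. Of 15 genes of cholesterol synthesis, 12 had lower means with a median of -0.06, and the median was 0.01 without the 5 arrays.

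Genes that make or degrade oxylipins, the oxidised products of linoleic and arachidonic acid, were not called. Of 31 measured, 18 had higher means on LA, and the median was 0.04 log2 units. At an unadjusted p below 0.05, 3 were higher and 2 lower, against 3.09% and 2.65% of all genes. With the 5 arrays left out, 20 were higher, 5 higher and 0 lower with an unadjusted p below 0.05, and the median was 0.06. Alox5ap, the helper of 5-lipoxygenase in leukotriene synthesis, differed by 0.30 log2 units with and without the 5 arrays. Hpgd, which inactivates prostaglandins, differed by 0.41 and then 0.24, with LA rat 7 at 4.71 against at most 3.39 in the others. Ptgds, prostaglandin D synthase, differed by -0.25 and then -0.16. Ptgs1 and Ptgs2, the cyclooxygenases, differed by 0.15 and -0.10 in all arrays and by 0.20 and -0.11 without the 5, where Ptgs1 had an unadjusted limma p of 0.0219 and an adjusted p of 0.992. Pla2g2a, a secreted phospholipase, differed by 0.67 and then 0.64 log2 units, with both ranges wide at 4.86 to 6.99 in obese controls and 4.87 to 8.12 in LA rats.

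Macrophage genes depended on the arrays included. Of 21 measured, 16 had higher means on LA and 5 an unadjusted p below 0.05, with a median of 0.04 log2 units. Without the 5 arrays all 21 were higher, 7 had an unadjusted p below 0.05 and the median was 0.26, and none was called. Without LA rats 7 and 8 alone 10 were higher and the median was -0.01, and without obese controls 4, 5 and 7 alone it was 0.35. The list mean was 4.78 to 5.84 in obese controls, where rats 4 and 7 were highest, and 4.86 to 5.59 in LA rats. Without the 5 arrays it was 4.78 to 4.88 and 4.86 to 5.30. The complement C1q chains of resident macrophages lay higher on LA in either set, with C1qa at 0.51 and 0.51 log2 units, C1qb at 0.57 and 0.48 and C1qc at 0.44 and 0.35. C1qa was at 5.21, 5.60 and 6.19 in obese controls and at 5.51, 6.02 and 7.10 in LA rats. Its groups overlapped, with 3 LA rats above all controls. Lyz2, lysozyme, differed by 0.00 and then 0.39 log2 units, Cd68, a lysosomal protein, by -0.07 and then 0.15, and Tyrobp, an adaptor of myeloid receptors, by 0.03 and then 0.30. Cd4, carried by helper T cells and by rat macrophages, differed by 0.48 and then 0.39.

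No inflammatory cytokine was called. Of 27 cytokine and chemokine genes, 14 had higher means on LA, with a median of 0.00 log2 units, 0 higher and 2 lower at an unadjusted p below 0.05. These counts turned to 3 higher and 0 lower without the 5 arrays, with 18 higher means and a median of 0.05, and to 5 higher and 0 lower without obese controls 4, 5 and 7 alone. Tnf was at 3.73 to 4.16 in obese controls and 3.72 to 4.08 in LA rats, Il1b at 3.35 to 3.54 and 3.29 to 3.89, and Il6 at 2.69 to 3.35 and 2.76 to 2.94. The Il6 difference was -0.16 log2 units (limma, adjusted p = 0.790), or -0.09 without the 5 arrays. Ccl2, a monocyte attractant, ranged from 4.50 to 8.73 in obese controls and from 4.77 to 5.81 in LA rats, and its difference of -0.53 log2 units became 0.20 without the 5 arrays.

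Immediate early genes, which respond within minutes to contraction, stretch or handling, had lower means on LA in 14 of 19 cases, 1 of them with an unadjusted p below 0.05, and a median of -0.12 log2 units. Without the 5 arrays 18 of 19 were lower, 4 with an unadjusted p below 0.05, and the median was -0.24. Egr1, a growth response factor, was at 6.69, 7.53 and 8.61 in obese controls and at 5.84, 6.98 and 8.02 in LA rats. The groups overlapped, and the difference was -0.58 log2 units, or -0.71 without the 5 arrays. Junb differed by -0.62 and then -0.24, Fos by -0.51 and then -0.55, with LA rat 8 at 8.27 above every other rat, and Ccn1, a matricellular protein, by -0.35 and then -0.67.

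Genes of insulin action and glucose uptake were not called. Of 22 insulin signalling genes, 9 had higher means on LA and the median was -0.01 log2 units, and without the 5 arrays 8 were higher and the median was -0.06. Insr, the insulin receptor, differed by -0.06 log2 units (95% confidence interval -0.22 to 0.10), Akt2, its downstream kinase, by -0.05 (-0.17 to 0.07), and Slc2a4, the insulin-responsive glucose transporter, by 0.10 (-0.09 to 0.28). The same genes differed by -0.10, 0.02 and -0.06 without the 5 arrays, so the last pair turned in sign. Irs1, the receptor's docking protein, differed by 0.23 and then 0.11, and Hk2, the muscle hexokinase, by -0.30 and then -0.18. Foxo1, a fasting and atrophy factor, differed by 0.41 and Fkbp5, a glucocorticoid target, by 0.56, and these became 0.08 and -0.11 without the 5 arrays, with LA rat 7 the highest in both. Socs2 and Cish, feedback inhibitors of growth hormone signalling, differed by 0.16 and -0.01 log2 units in all arrays and by -0.02 and 0.36 without the 5.

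Among fat cell genes, 15 of 17 had higher means on LA with a median of 0.10 log2 units, and 10 were higher with a median of 0.06 without the 5 arrays. Aqp7, a glycerol channel, was at 6.15, 8.02 and 8.40 in obese controls and at 7.31, 8.52 and 8.87 in LA rats. Of the LA rats, 6 lay above all controls, obese controls 4 and 7 were lowest, and the difference of 0.71 log2 units became 0.19 without the 5 arrays. Adipoq, adiponectin, a defining adipocyte hormone, was at 4.74 to 5.71 in obese controls and 4.04 to 7.57 in LA rats. The difference of 0.21 log2 units turned to -0.10 without LA rat 7, its highest rat, and to -0.06 without the 5 arrays. Endothelial genes had a median of 0.05 log2 units over 15 measured, and of -0.14 without the 5 arrays. Of the 44 lists examined, 32 had medians within 0.1 log2 units of 0 in all arrays, and 37 without the 5 arrays.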

How the data were processed

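RNA was measured on 1 Affymetrix array per rat. The authors deposited log2 intensities computed by RMA, per the submitters' processing notes, whose version is not given in the sources used here. RMA corrects background, quantile-normalises arrays and summarises probes, so a shift shared by most genes is removed. The table held 36685 features, with array medians from 3.83 to 3.99, correlations between arrays from 0.966 to 0.992 and 0 identical pairs. GEO's platform annotation gave 1 symbol to 14824 features, several to 829 and none here to 21032. Each gene was represented by its brightest feature (by mean over 32 arrays), dim genes included, which left 14557 genes. Of these, 14415 matched by Entrez ID the RefSeq table used for current symbols.

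A mean per group was fitted to all 32 arrays (28 residual degrees of freedom) with limma 3.58.1 in R 4.3.3. P-values were two-sided, adjusted by Benjamini-Hochberg over all genes, and called below 0.05. Confidence intervals (95%) were not adjusted. The script was tested on simulated data. Tables and figures used Python 3.11.15, pandas 2.3.3 and matplotlib 3.10.9. Slide, scan and extraction batches were not given in the sources used here, so no batch was modelled.

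The comparison, the 5 arrays left out and the 44 gene lists were chosen with earlier results of these data known, so values without these arrays describe and do not test. A list was described by its counts and its median. The rule for named genes took the called genes, the 10 smallest p and the 5 largest differences in each direction, and of each list key members and the 5 smallest p. Provisional symbols and those of olfactory or vomeronasal receptors and small RNAs were passed over. Ahr, Col6a1, Pln and Pla2g2a were named after their values were seen. Correlations of deviations between rats with the same number ran from -0.171 to 0.132, so numbers were not taken as pairs. Alternatives were leaving out each array, filters on dim genes, a fit over every feature, median centring, repeated quantile normalization, array weights, a robust prior with trend, a threshold of 0.1, only the 16 arrays, and a replicate block.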

Additional observations from a re-analysis of the deposited data

Results flagged for a closer look

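In each group of 8 rats, the highest or lowest value was compared with its nearest neighbour, and the values below lay further from it than Dixon's 95% limit allows. Chance flags about 1 in 20 groups. Here 27 values were found over 208 combinations of gene and group, and 3 over 18 combinations of list and group. Many of these genes were named for large differences or as list members and vary together, so the chance rate does not apply to these counts.

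LA rat 7 was highest for Aldh3a1 at 5.58, Scara5 at 5.99, Col1a1 at 10.78, Col6a1 at 7.38, Tnmd at 7.40, Kera at 7.76, Cd68 at 4.82, Hpgd at 4.71 and Foxo1 at 9.45, and it was lowest for Irs1 at 6.02. LA rat 5 was lowest for Chrna1 at 4.80, Acot2 at 7.55, Acadl at 10.41 and Aqp7 at 7.31, and highest for Cish at 7.43. LA rat 8 was highest for Fos at 8.27 and for the mean of the immediate early genes at 7.17. LA rat 4 was highest for Gc at 3.26 and for the mean of the hepatocyte genes at 3.77. LA rat 1 was lowest for Ebf2 at 3.93, and LA rat 3 was highest for Socs2 at 5.86.

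Obese control 5 was highest for Alb at 11.83, Gc at 9.98, Ambp at 9.36, Fads1 at 7.46, Fads2 at 9.52, Elovl6 at 6.09 and the mean of the hepatocyte genes at 7.74. Obese control 4 was lowest for Kera at 2.68, and obese control 7 was lowest for Cyp4f18 at 4.28. Cyp1a1 had no such value in either group.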

How the results depend on the processing

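The count of 1 called gene became 0 with the dimmest 25% of genes left out (smallest limma adjusted p 0.252), 0 with the dimmest 50% left out (smallest limma adjusted p 0.254) and 0 with only the 16 arrays compared. Both filters removed Cyp1a1 by their construction. At an unadjusted p below 0.05 these fits held 682, 509 and 534 genes. With only the 16 arrays, Cyp1a1 had a limma adjusted p of 0.0621. Fewer samples then estimate the spread. The lean controls and ALA rats, which varied less in Cyp1a1 than LA rats, no longer enter it. Leaving out each array in turn gave 1 to 2 calls, and the second was Col3a1 without LA rat 2, at 0.81 log2 units and a limma adjusted p of 0.0320. LA rat 2 had the lowest Col3a1 of the LA rats, at 6.45 against 7.07 to 8.02 in the others. Why that rat was low was not tested. Cyp1a1 ranged from 0.59 to 0.71 log2 units over these fits, with limma adjusted p from 3.69e-05 to 0.00145.

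The replicate number as a block gave 1 call, Cyp1a1, with a limma adjusted p of 3.01e-05. The block changed no other call, and same-numbered rats did not deviate together. Of 2779 alternative values of the 104 genes named, 2639 kept their direction and their side of the threshold. In 138, from 30 genes, the sign turned, 19 of them without the 5 arrays, and 0 of these were called. The other 2 were the lost call of Cyp1a1 and the gained call of Col3a1. Of the list medians, 1182 moved by less than the spread between rats and 6 by more, and 120, from 32 of the 44 lists, changed sign. With 8 arrays per group, differences under about 0.170 log2 units in a typical gene would not reach an unadjusted p below 0.05. A call at the adjusted threshold needed larger differences, so the absence of a call does not show that a gene was unchanged.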
